A study of Mus musculus with 56 samples.

Results

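Oxidative phosphorylation genes were followed as 1 set of RNAs in mouse Tregs, the regulatory subset of CD4 T cells, which holds immune reactions in check under control of the factor Foxp3. Members were chosen by symbol alone: the Nduf, Sdh, Uqcr, Cox4 to Cox8 and Atp5 families encoded in the nucleus, and the mt- genes for NADH dehydrogenase, cytochrome c oxidase, ATP synthase and cytochrome b encoded in mitochondrial DNA. The rule took 110 of the 55011 symbols in the count table, 97 nuclear and 13 mitochondrial, and left out 14 symbols ending in -ps. Of the 97 nuclear symbols, 8 (Ndufaf1 to Ndufaf8) are assembly factors of complex I and not subunits, and 4 (Cox6c2, Ndufa11b, Ndufb4c and Ndufs6b) are annotated as processed pseudogenes. The 14 symbols left out had median counts from 0 to 52 over the 56 libraries, with Ndufb1-ps at the top.

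Oxidative phosphorylation passes electrons from NADH and succinate through complexes I, II, III and IV of the inner mitochondrial membrane to oxygen, and the proton gradient built on the way drives ATP synthase, complex V. Complex II is encoded in the nucleus alone, while complexes I, III, IV and V combine nuclear subunits with a few catalytic or membrane subunits made from mitochondrial DNA, so both genomes must be read for 1 working chain. Tregs are known to lean on this pathway more than conventional effector T cells do, and Tregs of visceral fat are known for a lipid-linked metabolic programme that depends on the nuclear receptor gene Pparg.

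The series compared Tregs by tissue, diet, time and interferon. C57BL/6 mice of genotype vTreg53 Tg+, whose T cells carry a transgenic receptor, aged 12 weeks at the start were fed diets named NCD or HFD, with groups at weeks 2, 4, 8 and 16 and a week 0 group without a diet label. Cells positive for the receptor were sorted from spleen (26 libraries) and from visceral adipose tissue, VAT (25 libraries), in 9 groups per tissue of 3 libraries each, with 2 in spleen NCD week 4, VAT HFD week 4 and VAT NCD week 16. The other 5 libraries came from C57BL/6 mice aged 8 to 10 weeks that carried PPARgamma-tdT as KI/KI and Foxp3-GFP as KI/y and had all been injected with IL-33. Their tdT-positive VAT Tregs were cultured for 3 days. IL-2 was given at 2000 U/ml and IL-33 at 10 ng/ml in all wells, in 3 control cultures and 2 with 50 ng/ml interferon alpha (IFNα). All mouse Tregs therefore share the transgenic receptor, and all cultures share IL-33 and IL-2. The labels do not say whether libraries of a group came from separate mice, so p-values measure the spread between libraries, which may be technical.

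Each library held 1000 sorted cells, and total counts ran from 3248686 to 5826965 in spleen, 3319873 to 6091439 in VAT and 5408696 to 8764390 in culture. Levels are CPM, counts brought to a common library size with TMM scaling, and 3 counts, taken as the floor of detection for counting error only, were worth 0.342 to 1.01 CPM. The labelled cells were checked by summed marker levels: 5 Treg markers summed to 2690 to 3990 CPM in spleen and 3870 to 5230 CPM in VAT, and 4 VAT Treg markers to 312 to 786 CPM and 1930 to 5760 CPM. In culture these lists summed to 3470 to 5370 CPM and 2940 to 3210 CPM. Markers of macrophages stayed at or under 24.9 CPM, of adipocytes at or under 7.76 CPM and of stromal cells at or under 7.53 CPM in every library, while B cell markers reached 47.5 CPM in spleen and 72.7 CPM in culture, endothelial markers 371 CPM in spleen, and erythroid markers 112 CPM in 1 spleen library of NCD week 8. Their part in the results was not tested. The list of 18 stress and immediate early genes stood apart, with 9950 to 34600 CPM in VAT, 646 to 1290 CPM in spleen and 1240 to 1520 CPM in culture. Its part in the tissue results was not tested.

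How much of a mitochondrial gene these short reads can assign was examined first, because copies of mitochondrial DNA sit in the nuclear genome. Each transcript was split into windows of 38 bases, the length of 1 read, and each window was looked up in all other annotated genes. The windows stand for single reads, although the reads were paired, and pairs were not looked up. mt-Nd1 shared 0 windows with another gene, and 99% of the windows of mt-Nd6 and 98% of those of mt-Cytb were unique. mt-Co2 had 0% unique windows, mt-Co3 0.134%, mt-Atp6 0.466%, mt-Nd4l 1.15% and mt-Nd3 1.93%. The partners of these genes were unprocessed pseudogenes that lie side by side on chromosome 1 between 24611535 and 24616197 (mm10), among them Gm28661 for mt-Co2, Gm28437 for mt-Co3 and Gm10925 for mt-Atp6. A window from the middle of each of the 3 genes with the fewest unique windows is shown, in GENCODE M21 letters of the strand of the transcript, because a read of this length could not be placed in 1 gene.
mt-Co2: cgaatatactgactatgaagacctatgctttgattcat
mt-Co3: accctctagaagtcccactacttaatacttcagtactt
mt-Atp6: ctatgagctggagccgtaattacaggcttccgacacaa
In the table mt-Co2 was at 0 counts in 44 of 56 libraries, mt-Co3 in 44, mt-Atp6 in 33 and mt-Nd4l in 49. mt-Atp8, whose windows were 96.4% unique but which overlaps mt-Atp6 in the genome, was at 0 in 51. mt-Co1 with 41.6% and mt-Nd4 with 37.4% unique windows were still counted in every library, at 16970 to 58838 and 1234 to 3812 counts. The level of the mitochondrial set is therefore the level of mt-Nd1, mt-Nd2, mt-Nd4, mt-Nd5, mt-Nd6, mt-Cytb and mt-Co1, and nothing is read from the near-zero counts of the others. The authors' treatment of reads that match several genes is not stated in these sources. Among the 93 nuclear members with windows, the median was 97.7% unique, 30 fell under 90% and 3 (Atp5l, Atp5o and Uqcrb) under 50%.

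Per kilobase of transcript, mt-Co1, the catalytic core of cytochrome c oxidase, had the highest level of all countable members in VAT and in spleen. It stood at 4590 CPM per kb in VAT and 5542 CPM per kb in spleen (means of the 14 libraries without HFD in each tissue). mt-Nd1, a membrane core subunit of complex I, followed at 1690 CPM per kb in VAT and 1552 CPM per kb in spleen. The highest nuclear members per kb in VAT were Atp5b, the catalytic beta subunit of ATP synthase, at 576 CPM per kb, and Cox4i1, the ubiquitous form of a complex IV subunit, at 544 CPM per kb. mt-Cytb, the cytochrome b of complex III, lay beside them in VAT at 598 CPM per kb and above them in spleen at 960 CPM per kb. mt-Nd6, the only mitochondrial member on the minus strand of the annotation, was lowest of the 7 countable mt- genes at 66.7 CPM per kb in VAT. The per kb order of single genes rests on annotated lengths and on how many of their reads could be placed.

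Summed over the members, the counted nuclear and mitochondrial RNA were of similar size in mouse Tregs. The mt- sum is in effect that of the 7 countable mt- genes, so neither it nor the ratios below cover all mitochondrial RNA. The nuclear members summed to 9348 ± 670.2 CPM in VAT and 9161 ± 353 CPM in spleen (mean ± SD, n = 14 libraries without HFD each). The mt- members summed to 10710 ± 989 CPM in VAT and 13173 ± 1097 CPM in spleen, with mt-Co1 giving 66.2 ± 3.25% and 64.8 ± 3.21% of that sum. The mean log2 ratio of nuclear to mt- sum was -0.19 ± 0.11 in VAT and -0.52 ± 0.14 in spleen, and single libraries ran from -0.40 to 0.03 and from -0.68 to -0.16, so the tissues overlapped. Without mt-Co1, the mt- sum was 3618 ± 406 CPM in VAT, with libraries from 2801 to 4298 CPM, and 4611 ± 298 CPM in spleen, with libraries from 3996 to 5037 CPM. These sums are descriptions without a test, and in bulk RNA a lower sum can come from fewer mitochondrial transcripts per cell or from a change in the rest of the RNA, which cannot be told apart.

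**Figure D1:**
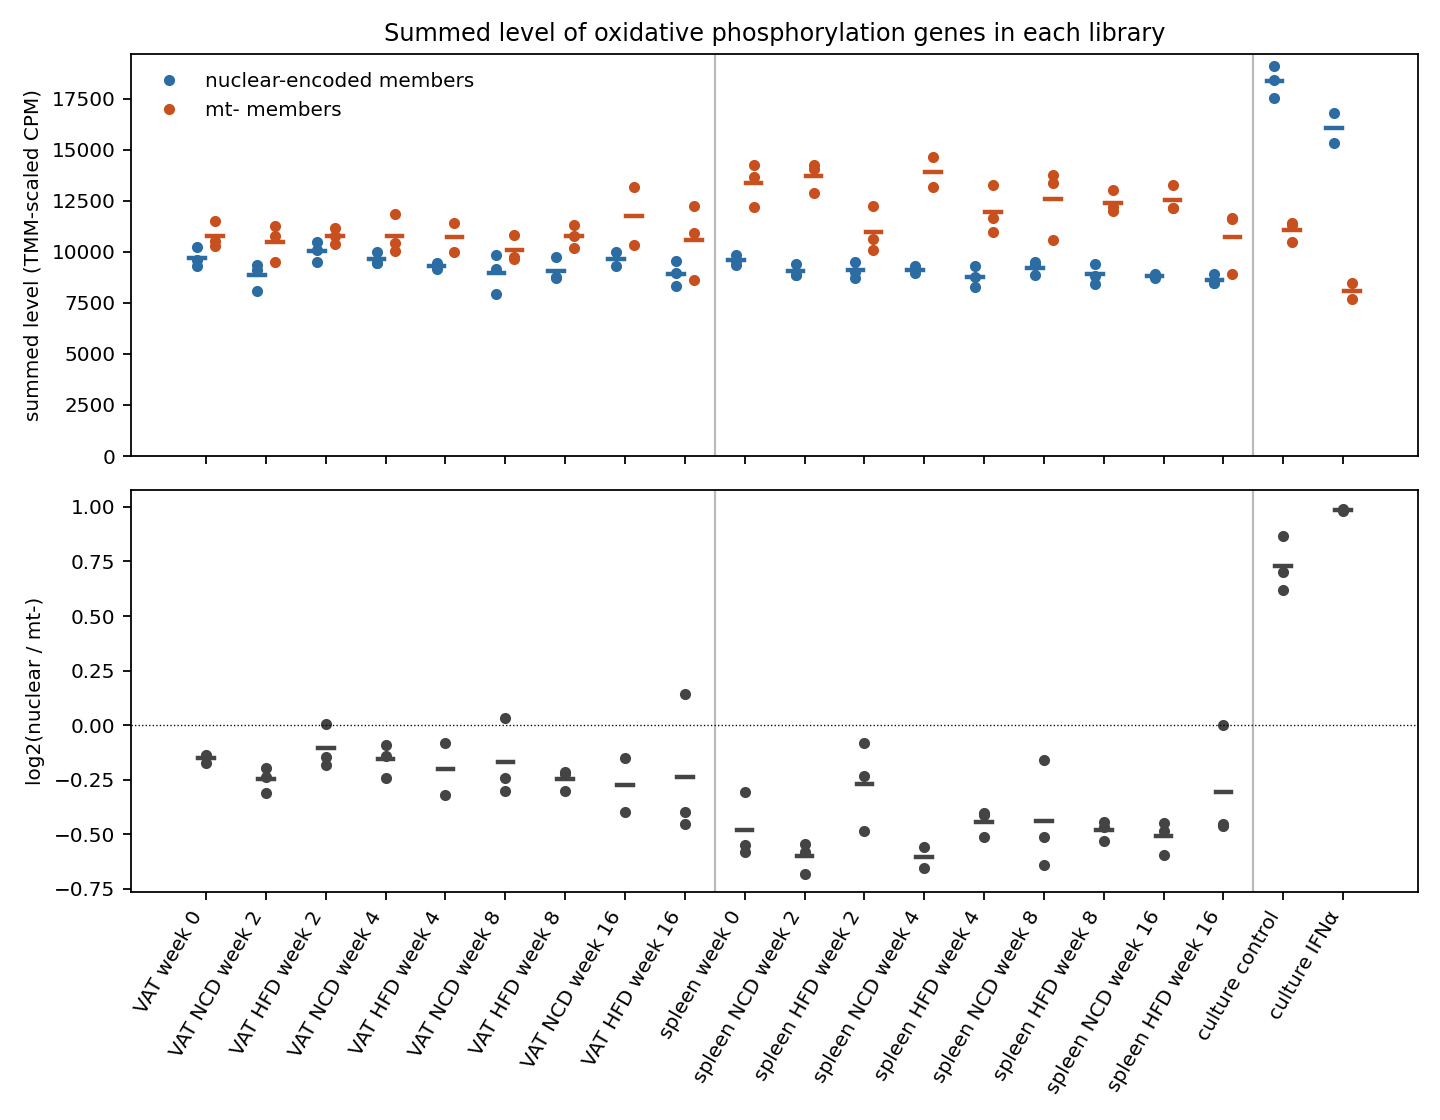
Upper panel: summed level (TMM-scaled CPM) of the nuclear members (blue) and the mt- members (orange) in each of the 56 libraries, with group means as bars. Lower panel: log2 ratio of the nuclear to the mt- sum, which lies below 0 in most mouse libraries and above 0 in all 5 cultures. Culture libraries were scaled apart from mouse libraries.

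VAT Tregs held less RNA of most mitochondrially encoded members than spleen Tregs, while nuclear members were called in both directions. VAT and spleen were compared over week 0 and the NCD weeks, 14 libraries each, with edgeR's quasi-likelihood test on the counts of 15601 genes. Of the 8 mt- genes tested, 6 were lower in VAT, 1 (mt-Nd1) was higher and 1 (mt-Nd3) was not called, with a median log2 fold change of -0.56 against -0.04 for all genes tested. Of the 86 nuclear members tested, 17 were higher and 31 lower in VAT, with a median of -0.15. In this comparison 59.1% of all genes tested were called, 29.1% higher and 30% lower, beside 58.5% of all members, 55.8% of the nuclear and 87.5% of the mt- members. The share called was 76.5% in complex V, 75% in complex II, 51.7% among complex I accessory subunits, all of them lower, and 42.9% to 50% in the other nuclear groups. Whether these groups differ from each other or from other genes was not tested. Where called members below do not overlap between tissues, this follows from their calls and adds no support. The share of all genes without such overlap was not counted. For the 7 countable mt- genes alone, 6 were lower and 1 higher, with a median of -0.63.

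mt-Nd5, a core subunit of complex I, ran from 572 to 835 CPM (median 708) in VAT and from 974 to 1209 CPM (median 1118) in spleen. The tissues did not overlap, and the log2 fold change was -0.66 ± 0.05 (SE, edgeR adjusted p = 1.58e-16). mt-Cytb ran from 515 to 789 CPM in VAT (median 679) and from 957 to 1243 CPM in spleen (median 1118). It did not overlap between tissues either, at a log2 fold change of -0.68 ± 0.05 (SE, edgeR adjusted p = 2.33e-15). mt-Nd4 (log2 fold change -0.50) and mt-Nd6 (-0.63) were lower in VAT with no overlap, and mt-Nd2 (-0.71) was lower with 13 of 14 VAT libraries under the spleen range. Beside these complex I genes, mt-Co1 was lower in VAT by less: it ran from 5971 to 8885 CPM in VAT and 5999.6 to 9725 CPM in spleen, a log2 fold change of -0.27 ± 0.07 (SE, edgeR adjusted p = 0.00117). mt-Nd1 was the exception, at 1617 ± 240.0 CPM in VAT and 1485 ± 122 CPM in spleen (SD, n = 14 each), a log2 fold change of 0.13 ± 0.06 (SE, edgeR adjusted p = 0.0416). The ranges overlapped, with 5 of 14 VAT libraries above the spleen range, and the call ended with DESeq2 (adjusted p = 0.0663), with RLE normalization (0.0502) and when any of 14 of the 28 libraries was left out. mt-Nd3, with means of 3.20 CPM in VAT and 4.26 CPM in spleen, stood at a log2 fold change of -0.39 (edgeR adjusted p = 0.139).

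**Figure D2:**
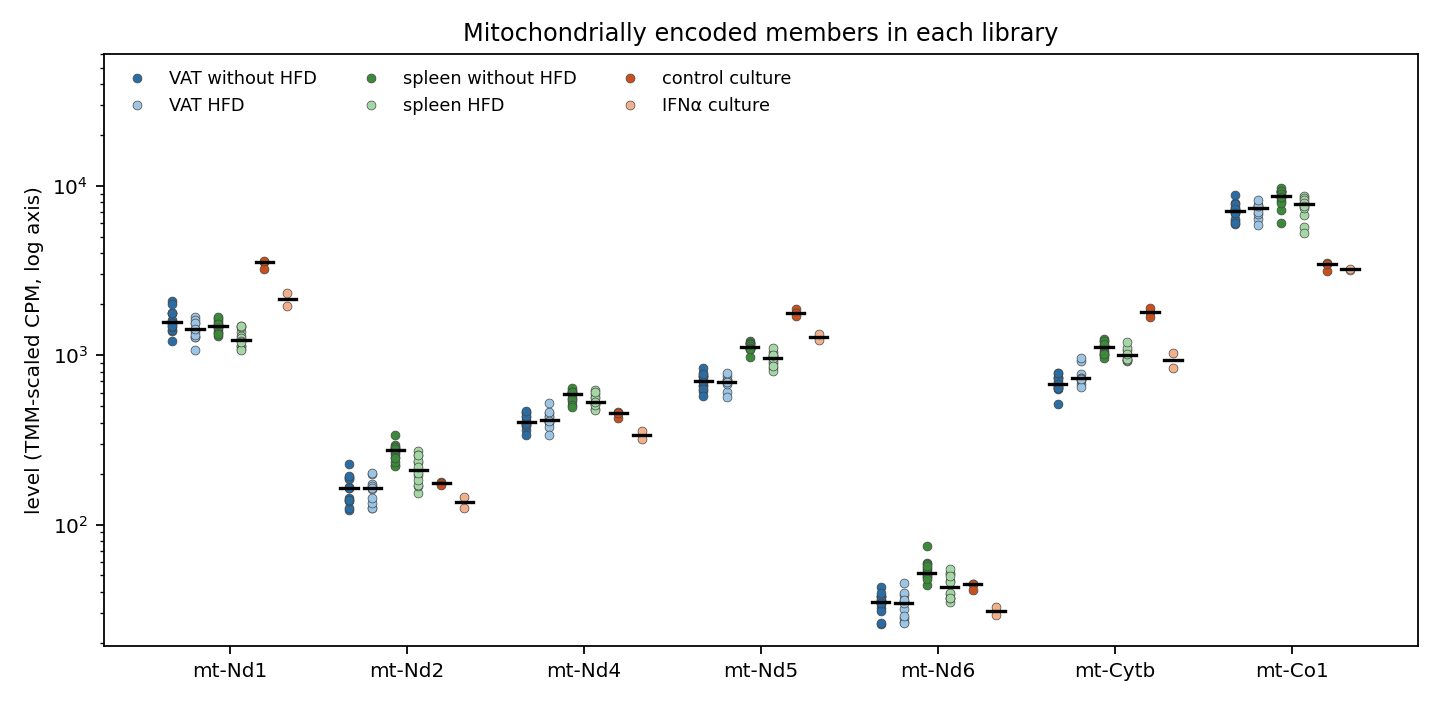
Level (TMM-scaled CPM, log axis) of the 7 countable mt- genes in every library, with the median of each set of libraries as a bar. Without HFD, mt-Nd5, mt-Cytb, mt-Nd4 and mt-Nd6 lie lower in VAT (blue) than in spleen (green) with no overlap and mt-Nd1 does not, and the control cultures (orange) have more mt-Nd1 and less mt-Co1 than either tissue.

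Complex I has 7 nuclear core subunits, which carry the cofactors, and a larger belt of accessory subunits. Of the 29 accessory subunits tested, 15 were lower and 0 higher in VAT, with a median log2 fold change of -0.26. Of the 7 core subunits, 2 were higher, 1 was lower and 4 were not called. Ndufa6, an accessory subunit, ran from 34.3 to 53 CPM in VAT and from 63.3 to 101 CPM in spleen, with no overlap and a log2 fold change of -0.89 ± 0.09 (SE, edgeR adjusted p = 8.53e-12). Ndufa3, also accessory, had medians of 11.9 and 21.8 CPM with no overlap, a log2 fold change of -0.82 ± 0.12 (SE, edgeR adjusted p = 1.96e-07). On the core side Ndufv1, which binds the flavin that takes electrons from NADH, was higher in VAT at 161 ± 13.9 against 130.2 ± 13.4 CPM, with a log2 fold change of 0.30 ± 0.06 (SE, edgeR adjusted p = 1.19e-05). The ranges of Ndufv1 overlapped. Ndufa10, the accessory member with the highest level, was at a log2 fold change of -0.0073 (SE 0.05) and was not called. Of the 8 assembly factors, 2 were higher (Ndufaf7 at 0.25 and Ndufaf5 at 0.32) and 2 lower (Ndufaf8 at -0.66 and Ndufaf3 at -0.37).

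Complex II, succinate dehydrogenase, is the one complex with no mitochondrially encoded subunit, and 3 of its 4 subunits were higher in VAT and 0 lower. Sdhd, a membrane anchor, ran from 132 to 197 CPM in VAT (median 169) and from 101 to 138 CPM in spleen (median 119). All VAT libraries but 1 lay above the spleen range, and the log2 fold change was 0.48 ± 0.07 (SE, edgeR adjusted p = 4.44e-08). Sdhb, the iron-sulfur subunit, rose by 0.29 and Sdhc, the other anchor, by 0.27 on the log2 scale (edgeR adjusted p = 4.77e-05 and 0.0222). Sdha, the flavoprotein with the highest level of the 4, was at 558 ± 33.5 CPM in VAT and 543 ± 36.8 CPM in spleen and was not called (log2 fold change 0.04, SE 0.04).

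In complex III, 2 of 8 subunits were higher and 2 lower in VAT. Uqcrc1, a core protein and the highest of the complex, was at 477 ± 39.4 CPM in VAT and 407 ± 27.1 CPM in spleen, a log2 fold change of 0.23 ± 0.05 (SE, edgeR adjusted p = 2.86e-05). Uqcrfs1, the Rieske iron-sulfur protein, was also higher, by 0.16 on the log2 scale. Uqcrh, the small hinge protein, was lower at 107 ± 16.1 against 150.0 ± 19.5 CPM, a log2 fold change of -0.48 ± 0.09 (SE, edgeR adjusted p = 6.39e-06), and Uqcr10 was lower by a log2 fold change of -0.36. All 4 ranges overlapped between tissues.

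Complex IV members, 21 by symbol, gave 13 testable genes, of which 4 were lower and 2 higher in VAT. Cox7a2l, a protein that helps join complexes III and IV into supercomplexes, had the smallest p of all members. It ran from 112 to 144 CPM in VAT (median 129) and from 209 to 295 CPM in spleen (median 269), with no overlap and a log2 fold change of -1.01 ± 0.06 (SE, edgeR adjusted p = 5.11e-20). Ndufa4, once counted to complex I and now to complex IV, was lower by a log2 fold change of -0.81, Cox7c of -0.65 and Cox5b of -0.31. Cox5a was higher by 0.33 on the log2 scale. Tissue-restricted forms of complex IV subunits were at or near 0: Cox6a2, Cox7a1, Cox7b2, Cox8b and Cox8c, known from muscle, brown fat or testis, and Cox6b2 and Ndufa4l2 had mean levels from 0 to 0.241 CPM in the 2 tissues, under the floor. Cox4i2, the form of Cox4 known to be induced at low oxygen, was at 0.213 to 5.18 CPM in VAT and 0 to 0.634 CPM in spleen. It passed the filter on low counts through VAT alone, so its call, which is among the 2 of complex IV and the 17 nuclear members counted higher, supports nothing. The 3 week 0 libraries of VAT had 4.93 to 5.18 CPM of Cox4i2 and the 2 NCD week 16 libraries 0.23 and 0.58 CPM. Its levels are a few counts per library, and its ubiquitous partner Cox4i1, at 411 ± 61.1 CPM in VAT and 432 ± 36.8 CPM in spleen, was not called. The ubiquitous forms Cox6a1, Cox6b1, Cox7a2, Cox7b and Cox8a lay between log2 fold changes of -0.21 and 0.07 and were not called.

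In complex V, ATP synthase, all 17 members were tested, and 6 were higher and 7 lower in VAT. The 4 higher members with the smallest p belong to the F1 part, head and central stalk, that makes ATP. Their RNAs are among the highest of the nuclear set. Atp5e, the epsilon subunit of the same part, was not called, at 43.6 ± 9.83 CPM in VAT and 52.9 ± 10.9 CPM in spleen. Atp5d, the delta subunit, ran from 271 to 412 CPM in VAT (median 381) and from 265 to 316 CPM in spleen (median 283), with overlap and a log2 fold change of 0.37 ± 0.05 (SE, edgeR adjusted p = 2.93e-09). Atp5c1, the gamma subunit, was higher by 0.26, Atp5b by 0.23 and Atp5a1, the alpha subunit, by 0.18 on the log2 scale, each with an edgeR adjusted p of at most 2.34e-05. The lower members lie in the membrane part or the peripheral stalk. Atp5j2, subunit f, ran from 29.9 to 48.6 CPM in VAT and from 58.1 to 96 CPM in spleen, with no overlap and a log2 fold change of -0.85 ± 0.08 (SE, edgeR adjusted p = 2.97e-12). Atp5l (subunit g), Atp5k (subunit e), Atp5g2 (a subunit c gene), Atp5mpl, Atp5h (subunit d) and Atp5j (coupling factor 6) were lower by log2 fold changes from -0.85 to -0.50. Atp5md, another small membrane member, went the other way at 0.41, as did Atp5pb, subunit b, at 0.12.

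**Figure D3:**
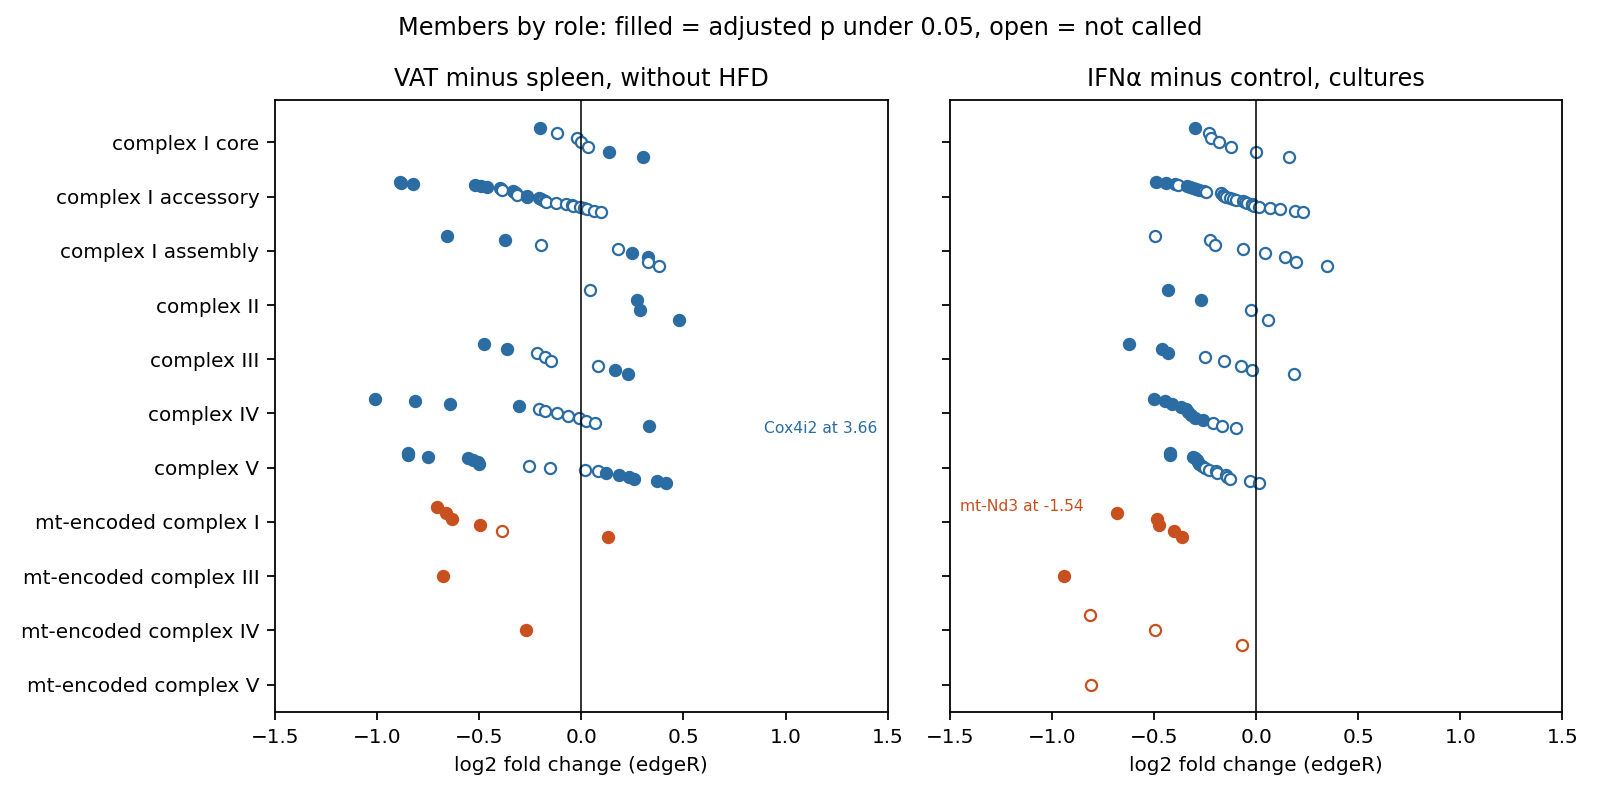
Log2 fold change (edgeR) of each tested member by complex, for VAT minus spleen without HFD (left) and IFNα minus control culture (right), with filled points at an adjusted p under 0.05. On the left the accessory subunits of complex I lie at or below 0.09 and complex II at or above 0.04, and on the right no filled point lies above 0. Values beyond 1.5 are written in the panel.

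Transcript length moved with these differences. The 31 nuclear members lower in VAT had a median transcript length of 704 bases, the 17 higher ones 1451 bases and the 38 not called 769 bases. Over the 86 nuclear members the Spearman correlation of length with the VAT minus spleen log2 fold change was 0.40, a description across genes that share libraries and are not independent. Of the 33 members under 700 bases, 15 were lower and 2 higher. Their median was -0.26, against -0.27 for all 252 genes tested of this length, members included. For the 19 members of 700 to 1000 bases the median was -0.18, against -0.10 for all genes of this length. The 17 members of 1000 to 1500 bases had -0.04 against 0.02. The 12 of 1500 to 2500 bases had 0.10 against 0.06, and the 5 longer ones 0.13 against 0.04. An offset per library for transcript length was added after seeing the data. With it the split of called members moved from 18 higher and 37 lower to 10 higher and 46 lower. Over all 15601 genes tested the split moved from 4533 higher and 4688 lower to 3683 higher and 5946 lower. The offset shifted the median of all genes tested from -0.04 to -0.17. With it the nuclear median was -0.13 and that of the mt- genes -0.56. Under it Atp5a1 (log2 fold change 0.05), Atp5b (0.07), Uqcrc1 (0.06) and Ndufaf7 (0.08) were no longer called. The share of unique windows moved too: among the 56 nuclear members with at least 90% unique windows, 15 were higher and 16 lower, with a median of -0.02. The part of length, and of reads shared with other genes, in the tissue difference was not tested beyond this.

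**Figure D4:**
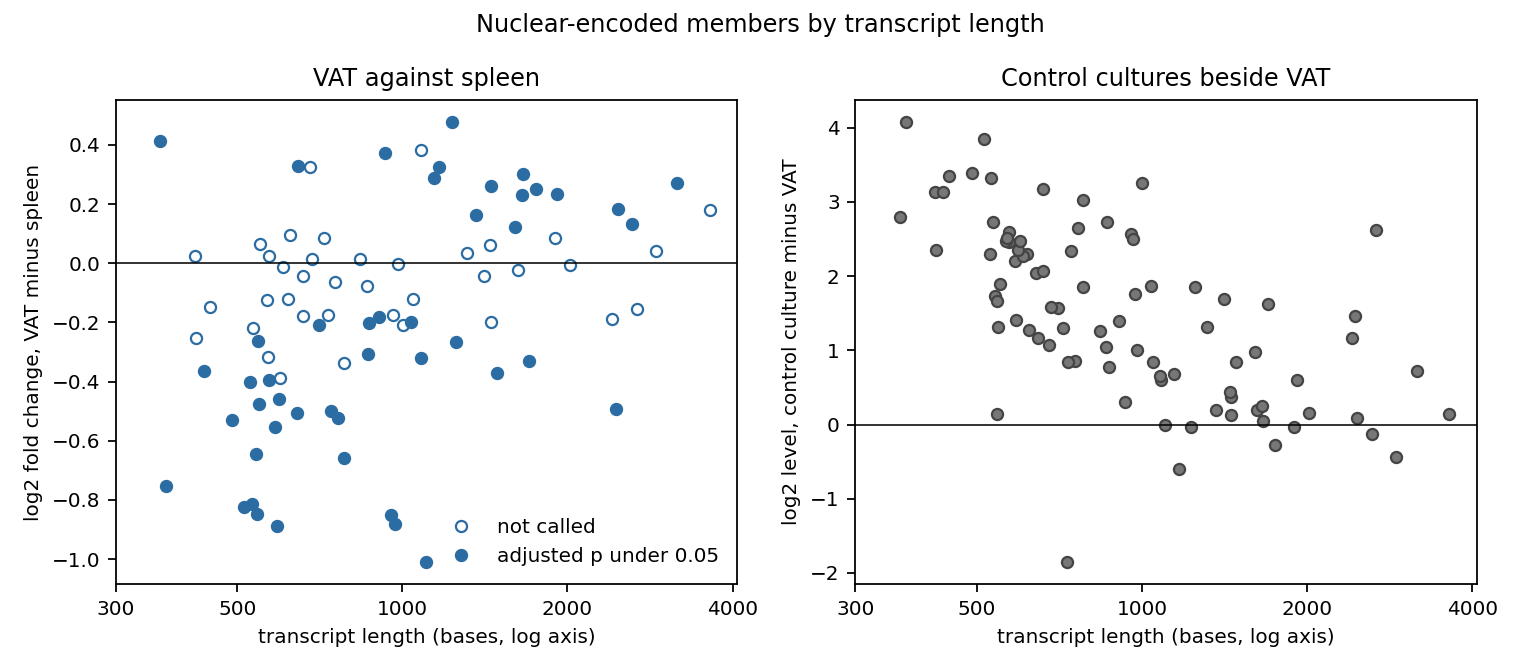
Nuclear members by transcript length (bases, log axis). Left: log2 fold change of VAT minus spleen, filled at an adjusted p under 0.05, where 15 of 33 members under 700 bases are lower; Cox4i2 at 3.66 lies outside the panel. Right: log2 level in the 3 control cultures minus the 14 VAT libraries without HFD, positive for all 33 members under 700 bases.

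Promoter letters were read for the nuclear members, since their genes lie apart in the genome and are known targets of the factors NRF1, GABP of the ETS family and YY1. RefSeq promoters (GRCm38.p6, 250 bases before to 50 after the start) were found for 76 of 97 nuclear members. The NRF1 core letters CGCATGCG occurred in the promoters of 14.5% of these members and of 2.07% of all 27025 genes with a promoter. The ETS letters CCGGAAG occurred in 25% and 9.93%, and the YY1 letters AAGATGGC in 14.5% and 3.19%, counted on both strands. At least 1 of the 3 occurred in 44.7% of these members and 14.1% of all genes with a promoter. By response, the share was 46.2% among the 13 members higher in VAT with a promoter, 42.9% among the 28 lower and 51.6% among the 31 not called. For IFNα it was 52% among the 25 members lower with a promoter and 44.7% among the 47 not called, and for the ETS letters alone 40% and 19.1%, with no test. Shown are 3 members that went different ways in the comparison of tissues, lower (Atp5k), higher (Sdhd) and not called (Cox6a1), as the 250 bases before the start on the strand of the gene, with the motif letters in capitals.
Atp5k (chr5:108434400-108434649, minus strand): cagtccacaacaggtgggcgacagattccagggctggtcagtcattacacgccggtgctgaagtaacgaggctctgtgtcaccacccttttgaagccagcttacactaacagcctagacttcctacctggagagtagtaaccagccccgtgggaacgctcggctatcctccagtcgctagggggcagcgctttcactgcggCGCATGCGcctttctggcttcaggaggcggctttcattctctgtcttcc
Sdhd (chr9:50603850-50604099, minus strand): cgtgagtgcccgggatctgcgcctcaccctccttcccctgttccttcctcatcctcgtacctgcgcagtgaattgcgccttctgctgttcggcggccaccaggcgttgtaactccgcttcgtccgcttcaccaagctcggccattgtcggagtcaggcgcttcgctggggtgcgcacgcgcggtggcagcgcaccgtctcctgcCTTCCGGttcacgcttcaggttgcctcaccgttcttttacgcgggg
Cox6a1 (chr5:115348959-115349208, minus strand): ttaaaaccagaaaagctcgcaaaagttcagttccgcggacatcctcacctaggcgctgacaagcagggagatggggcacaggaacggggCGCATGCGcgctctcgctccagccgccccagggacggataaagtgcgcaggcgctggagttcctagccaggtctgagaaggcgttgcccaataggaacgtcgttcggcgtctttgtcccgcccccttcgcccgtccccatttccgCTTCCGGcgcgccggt
The NRF1 letters begin 49 bases before the start in Atp5k and 161 before it in Cox6a1. The ETS letters lie in reverse 46 bases before the start in Sdhd and 16 before it in Cox6a1. The promoter of Atp5k also holds the ETS letters, but not within the 250 bases shown. Such matches describe letters and not binding.

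Diet moved few members in VAT. At weeks 2, 4 and 8, edgeR called 0 members in VAT, where it called 0.0565%, 0.0212% and 1.33% of all genes tested. There 9, 3 and 2 nuclear members and 0 mt- members had an unadjusted p under 0.05. The number of all genes with one is not given here, so these counts are not read as a result. DESeq2 also called 0 members at these weeks. At week 2 the nuclear members lay above 0 as a set without any call: 75 of 86 log2 fold changes were positive, with a median of 0.20 against -0.01 for all 14164 genes tested. Genes under 700 bases had a median of 0.16 there, and members of that length 0.28. At week 4 the sign was the other way, with 60 of 86 negative and a median of -0.10. At week 8 the median was 0.02.

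At week 16, where 9.24% of all genes tested were called and 4.93% called lower, mt-Nd1 was the only member called in VAT. It stood at 2082 and 1996 CPM in the 2 NCD libraries and at 1068, 1317 and 1437 CPM in the 3 HFD libraries. The groups did not overlap, and the log2 fold change was -0.65 ± 0.14 (SE, edgeR adjusted p = 0.00179). Since mt-Nd1 was picked by its p, this separation adds no support. The 2 NCD week 16 libraries held the highest mt-Nd1 of the 25 VAT libraries, and NCD week 16 against week 0 gave a log2 fold change of 0.42 that was not called (edgeR adjusted p = 0.142). Marker lists moved with it: the stress and immediate early list summed to 34045 and 33834 CPM with NCD and to 9951, 21565 and 13522 CPM with HFD, and the VAT Treg markers to 5427 and 5192 CPM with NCD and to 1928, 3472 and 2249 CPM with HFD. B cell markers were at or under 6.11 CPM with NCD and at or over 15.3 CPM with HFD. Their part in the call was not tested. The call held when each of the 5 libraries was left out, where an arm left with 1 NCD library is assumed to vary like the other groups. The other 7 mt- genes tested were not called: mt-Nd2 was at -0.38, mt-Nd5 at -0.14, mt-Nd6 at -0.13, mt-Nd4 at -0.06, mt-Cytb at 0.01, mt-Co1 at -0.02 and the scarce mt-Nd3 at -0.97. Of the 86 nuclear members 0 were called, with a median of -0.09. Over the mean of the 4 weeks, where 4.2% of genes were called and 1.86% called lower, mt-Nd1 was again the only member called, with a log2 fold change of -0.23 ± 0.06 (SE, edgeR adjusted p = 0.0419). That mean includes week 16, and the call was lost when any of 13 of the 22 libraries was left out (adjusted p up to 0.165). Of the others, mt-Cytb was at 0.12, mt-Nd2 at -0.11, mt-Nd6 at -0.07, mt-Nd5 at -0.05, and mt-Co1, mt-Nd4 and mt-Nd3 between 0.04 and 0.05. The nuclear median was -0.00195 over 86 members.

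In spleen 3 mitochondrial members were lower with HFD over the mean of weeks, and 0 nuclear members were called. No member was called at any single week, where edgeR called 0.0272%, 1.24%, 0% and 0% of genes at weeks 2, 4, 8 and 16, and DESeq2 called 1 member at week 4 and 0 at the others. All 8 mt- genes tested, the scarce mt-Nd3 among them, had negative log2 fold changes at weeks 2, 4 and 16 and 6 of 8 at week 8. The medians were -0.17, -0.27, -0.23 and -0.17 in the order of weeks 2, 4, 16 and 8. Over the mean of the 4 weeks, where 0.933% of genes were called and 0.32% called lower, mt-Nd5, mt-Nd2 and mt-Nd1 were lower and 0 members higher. mt-Co1 (-0.21), mt-Cytb (-0.13), mt-Nd4 (-0.09), mt-Nd6 (-0.28) and the scarce mt-Nd3 (-0.49) were not called. The 7 countable mt- genes were all negative there, with a median of -0.23, beside -0.07 for the 85 nuclear members and 0.00 for all 14686 genes tested.

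mt-Nd5 stood at 1089, 1182 and 1119 CPM with NCD and 975, 901 and 918 CPM with HFD at week 2. At week 4 it stood at 1172 and 1116 against 1043, 992 and 838 CPM. Weeks 8 and 16 gave 1104, 1170 and 1132 against 956, 996 and 1107 CPM, and 974, 1098 and 1082 against 810.1, 864 and 1003 CPM. The diets did not overlap at weeks 2 and 4 and overlapped at weeks 8 and 16. As mt-Nd5 was picked by its p, this adds no support. Its mean log2 fold change was -0.24 ± 0.04 (SE, edgeR adjusted p = 0.0118). mt-Nd2 had a mean log2 fold change of -0.32 ± 0.07 (SE, edgeR adjusted p = 0.0349), with its largest difference at week 4, 288 and 289 CPM with NCD and 237, 195 and 152 CPM with HFD. mt-Nd1 had one of -0.23 ± 0.06 (SE, edgeR adjusted p = 0.0477). The call of mt-Nd5 held when each of the 23 libraries was left out (adjusted p up to 0.0342), that of mt-Nd2 was lost with any of 12 and that of mt-Nd1 with any of 17. In the summed level, the mt- members stood at 13118 ± 1150 CPM in the 11 NCD libraries of weeks 2 to 16 and at 11515 ± 1228 CPM in the 12 HFD libraries, and the nuclear members at 9045 ± 284 and 8851 ± 402 CPM. Without mt-Co1 the mt- sums ran from 3996 to 4911 CPM with NCD and from 3585 to 4719 CPM with HFD, so the diets overlapped. The call of mt-Nd1 over the mean of weeks ended in both tissues with a replicate block (edgeR adjusted p = 0.0562 in VAT and 0.0564 in spleen) and with only the groups compared (0.0596 and 0.0608). The test of the difference between its effects gave -0.01 (edgeR adjusted p = 1, interval of 2 SE from -0.19 to 0.17).

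At week 8 in spleen 18 of 85 nuclear members had an unadjusted p under 0.05 although edgeR called 0 genes of 14686, of which 716 had one. Their log2 fold changes were negative for 69 of 85, with a median of -0.24. Length moved with this too: the Spearman correlation over the 85 members was 0.578, members under 700 bases had a median of -0.35, and all 234 genes of that length had -0.33. The part of length in this difference was not tested. NCD week 16 against week 0, a comparison of time on the diet and of age that cannot be told apart, called 0 members in either tissue, beside 0.713% of genes in VAT and 0.654% in spleen.

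**Figure D5:**
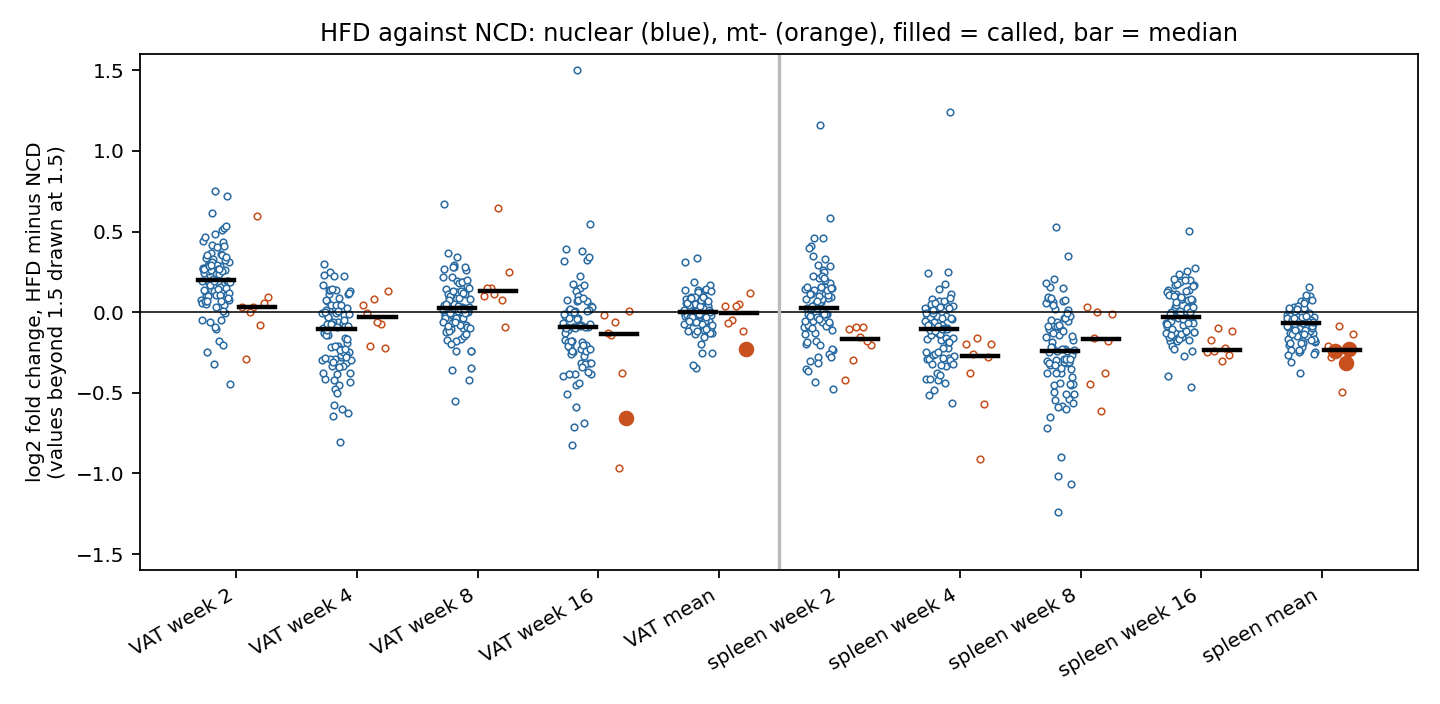
Log2 fold change (edgeR) of HFD minus NCD for each tested nuclear (blue) and mt- (orange) member at each week and over the mean of weeks, with medians as bars and called members filled. The only filled points are mt-Nd1 in VAT at week 16 and over the mean, and mt-Nd1, mt-Nd2 and mt-Nd5 over the mean in spleen.

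The test of the difference between tissues in the mean HFD effect called 1 member, Cox7a2l, where 2.44% of genes were called and 1.08% called higher. Its mean log2 fold change with HFD was 0.14 in VAT and -0.19 in spleen, neither called alone (edgeR adjusted p = 0.262 and 0.176), and the difference was 0.31 ± 0.09 (SE, edgeR adjusted p = 0.0475). In VAT at week 16 it stood at 136 and 137 CPM with NCD and at 154, 144 and 205 CPM with HFD. In spleen at week 2 it stood at 276, 275 and 270.0 CPM with NCD and at 213, 209.6 and 283 CPM with HFD, so that 1 HFD library lay above all NCD libraries. These weeks were chosen after their values were seen. The call was lost when any of 28 of the 45 libraries was left out and when no filter on low counts was applied (adjusted p = 0.115).

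With IFNα, members of both genomes were lower in cultured VAT Tregs, and no member was called higher. Of the 85 nuclear members tested, 31 were lower and 0 higher, with a median log2 fold change of -0.20, and of the 7 countable mt- genes 6 were lower and 0 higher, with a median of -0.47. The 4 scarce mt- genes tested are left aside in that median, and 1 of them, mt-Nd3, was called lower. All genes tested had a median of 0.01, and 21.7% of them were called, 10.6% higher and 11% lower, beside 36.5% of the nuclear members and 85.7% of the countable mt- genes. Treg markers moved with IFNα too, at 5373, 5264 and 5260.1 CPM in control and 3472 and 3623 CPM with IFNα, and B cell markers stood at 62.9 to 72.7 CPM in control and at 42.0 and 48.3 CPM with IFNα. Their part in the result was not tested. The 5 cultures were 3 controls and 2 with IFNα. For each called member no IFNα culture overlapped a control, but the members were picked by their p, so this supports nothing. The share of all genes without such overlap was not counted.

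mt-Cytb had the smallest p of the members, at 1790, 1678 and 1895 CPM in control cultures and 835 and 1027 CPM with IFNα, a log2 fold change of -0.94 ± 0.09 (SE, edgeR adjusted p = 1.48e-07). mt-Nd1 was at 3536, 3229 and 3599 CPM in control and at 1965 and 2340 CPM with IFNα, a log2 fold change of -0.68 ± 0.08 (SE, edgeR adjusted p = 2.82e-06). Both stood lower in each IFNα culture than in any control, which adds no support for members picked by their p. mt-Nd5 (-0.47), mt-Nd4 (-0.40), mt-Nd6 (-0.48) and mt-Nd2 (-0.36) were lower by less on the log2 scale. The scarce mt-Nd3 was also called, at 3.42 to 6.85 CPM in control and 1.31 and 1.74 CPM with IFNα, where its windows are almost all shared with a pseudogene. Its call was lost with DESeq2 (adjusted p = 0.0796) and in 3 of 5 fits without 1 culture, and those of mt-Nd2 (0.108) and mt-Nd6 (0.106) were lost without the first IFNα culture. mt-Co1 did not follow: it was at 3522, 3149 and 3434 CPM in control and at 3176 and 3243 CPM with IFNα, a log2 fold change of -0.07 (SE 0.07) that was not called (edgeR adjusted p = 0.521). Its share of mt- counts was 30.4 ± 0.419% in control and 38.2 and 41.2% with IFNα. mt-Co2, mt-Co3 and mt-Atp6 had at most 8.88 CPM in any culture and were not called.

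Among the nuclear members, complex IV moved most widely, with 9 of 12 tested lower and 0 higher. Cox7a2, a small complex IV subunit, was at 322, 377 and 329.9 CPM in control and at 230.4 and 255 CPM with IFNα, a log2 fold change of -0.50 ± 0.09 (SE, edgeR adjusted p = 3.57e-04). Ndufa4 followed at 419.9, 468 and 449 against 312 and 342 CPM, a log2 fold change of -0.45 ± 0.08 (SE, edgeR adjusted p = 4.29e-04), and Cox4i1 at -0.33, Cox6b1 at -0.41 and Cox8a at -0.37 were lower too. In complex III 3 of 8 were lower, led by Uqcrh at 273, 263 and 263 CPM in control and 165 and 181 CPM with IFNα, a log2 fold change of -0.62 ± 0.09 (SE, edgeR adjusted p = 1.68e-05). Uqcrfs1 was lower by a log2 fold change of -0.46 and Uqcr11 of -0.43. In complex V 8 of 17 were lower, with Atp5mpl at -0.42 and Atp5a1 at -0.27. Complex II had 2 of 4 lower, the anchors Sdhc (-0.43) and Sdhd (-0.27). In complex I 8 of 29 accessory and 1 of 7 core subunits were lower, led by Ndufv3 at -0.49, and 0 of 8 assembly factors were called. Whether complexes differ from each other was not tested.

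The number of members called lower with IFNα, 38 in all, fell to 15 without the first IFNα culture and to 24 without the third control, and ran from 15 to 39 over the 5 cultures left out in turn, where a lone IFNα culture is assumed to vary like the controls. Over all genes, 1018 of 12535 were lower without the third control, against 1390 of 12604 with all 5 cultures. Without the first IFNα culture the number of members fell further, while that of all genes fell less than without the third control. The number of members called lower thus depended on that 1 culture. The number of members called lower was 32 with DESeq2, all 32 among the 38. It was 25 with the offset for transcript length, all 25 among the 38. Over all genes DESeq2 called 1109 of 13117 lower and the offset 1406 of 12604. The correlation of transcript length with this response was 0.185 (Spearman) and 0.198 (Pearson) over 85 members, beside 0.401 and 0.208 over 86 members for tissue. Over all genes Spearman's value was 0.111 for IFNα and 0.0222 for tissue. In the sums, the nuclear members stood at 18363 ± 783 CPM in control and at 15313 and 16785 CPM with IFNα, and the mt- members at 11083 ± 509 CPM in control and at 7701 and 8491 CPM with IFNα. The log2 ratio of nuclear to mt- sum was 0.62 to 0.86 in control and 0.98 to 0.99 with IFNα.

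Control cultures had more RNA of nuclear members than VAT Tregs of the mice, most of all of short ones. The values stand side by side without a test, since the cultures come from another mouse line, were kept with IL-2 and IL-33 and were scaled apart. Of the 86 members tested in the mice, 78 had a higher mean level in the 3 control cultures than in the 14 VAT libraries, with a median log2 difference of 1.44. For the 33 members under 700 bases the difference was positive for all 33 with a median of 2.35, and for the 53 longer ones it was positive for 45 with a median of 0.84. Over the 86 members the Spearman correlation of length and difference was -0.673. mt-Co1 alone of the 8 mt- genes had a lower level in culture, by a log2 difference of -1.07, and mt-Nd1 stood at 3455 ± 198 CPM there against 1617 ± 240.0 CPM in VAT.

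Genes that build and feed the chain but fall outside the rule were called in part, against 29.1% higher and 30% lower over all genes tested. Cyc1, the cytochrome c1 of complex III, was higher in VAT than in spleen, at 183 ± 21.6 against 148 ± 17.5 CPM (log2 fold change 0.32 ± 0.06 (SE, edgeR adjusted p = 1.02e-05)), and Cycs, cytochrome c, was not called (0.21). Cox17, the copper chaperone of complex IV, was lower in VAT at 20.8 ± 4.59 against 58.6 ± 11.1 CPM (log2 fold change -1.50 ± 0.11 (SE, edgeR adjusted p = 1.04e-16)). Of 20 complex IV assembly genes listed, 18 were tested, 5 were lower and 2 higher in VAT. Among 16 genes of mitochondrial DNA expression 9 were lower in VAT and 1 higher, so that 62.5% were called, near the 59.1% of all genes. The higher one was Polg2, the accessory subunit of the mitochondrial DNA polymerase, at 161 ± 33.9 against 37 ± 11 CPM (log2 fold change 2.10 ± 0.10 (SE, edgeR adjusted p = 9.98e-23)). Tfam, which packages mitochondrial DNA and starts its transcription, was among the lower, at 77.9 ± 7.45 against 111 ± 15 CPM (log2 fold change -0.51 ± 0.06 (SE, edgeR adjusted p = 3.74e-09)), and Polrmt, the mitochondrial RNA polymerase, was not called (-0.14). Of 84 mitochondrial ribosome genes listed 79 were tested, 25 were lower, among them Mrpl58 at -0.81, and 10 higher in VAT, 44.3% called and fewer than the 59.1% of all genes. Whether any of these lists differs from other genes was not tested.

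With IFNα in culture, where 10.6% of all genes were higher and 11% lower, of the 16 genes of mitochondrial DNA expression 0 were lower and 1 higher, Polrmt at 0.44 (edgeR adjusted p = 0.0209), a call lost without the first control or the second IFNα culture and with DESeq2. Tfam was at 0.26 (SE 0.12), not called. Of 18 complex IV assembly genes 5 were higher and 0 lower, led by Sco1, a copper chaperone, at 133 ± 1.34 CPM with IFNα against 21.9 ± 3.15 CPM in control (n = 2 and 3), a log2 fold change of 2.59 ± 0.13 (SE, edgeR adjusted p = 1.90e-12). Of 78 mitochondrial ribosome genes tested 4 were higher, led by Mrpl30 at 1.29, and 9 lower, 16.7% called against 21.7% of all genes. Cyc1 was at -0.08 and Cycs at -0.10, neither called. Myc was higher by 0.48 on the log2 scale. The coactivator gene Ppargc1b had group means from 2.90 to 7.79 CPM and was not called in either comparison.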

How the data were processed

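RNA of sorted or cultured mouse Tregs was read as paired reads of 38 bases after oligo(dT) priming and 18 PCR cycles, per the labels' protocols. The table that the authors deposited holds unnormalized read counts for each gene, made with STAR 2.7.3a and featureCounts on mm10, per the submitters' processing notes. Strand, treatment of multi-mapping reads and annotation release are not stated there. Groups came from the titles, since the spleen libraries carry a VAT tissue label. From the counts, edgeR 4.0.16 (R 4.3.3) gave TMM scaling, a filter on low counts by group and robust quasi-likelihood tests over all genes, with Benjamini-Hochberg adjusted p under 0.05 as the call, in 15 comparisons. VAT and spleen were fitted together for the comparison of tissues and for the difference of HFD effects, alone for diet and time, and the 5 cultures on their own. As alternatives, DESeq2 1.42.0, RLE normalization, a replicate block, no filter on low counts, only the groups compared and each library left out in turn were run. A length offset, members at least 90% unique and sums without mt-Co1 were added after seeing the data. The scripts were tested on simulated data. Lengths and windows came from GENCODE M21.

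The members and the lists were chosen with earlier results of these data known. Named were, per comparison, up to 10 called members each way by p, all mt- genes, the highest member of each role, tissue-restricted isoforms with their counterparts, and up to 3 genes of each other list. A gene that this rule names is not reported here. Further called members of a complex were named after their values were seen. No 2 libraries of a group were identical.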

Additional observations from a re-analysis of the deposited data

Results flagged for a closer look

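Cox7a2l had a mean HFD effect that differed between VAT and spleen by 0.31 on the log2 scale in the edgeR test of the difference itself (adjusted p = 0.0475). The effect was 0.14 in VAT and -0.19 in spleen. Of its windows of 38 bases 80.1% were unique to the gene. The call was lost in 28 of 45 fits without 1 library, with no filter on low counts (adjusted p = 0.115) and with only the groups compared (0.0649).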

How the results depend on the processing

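The comparison of tissues gave 10 members higher with the length offset and 18 lower among members at least 90% unique. With IFNα the length offset gave 2 higher and 25 lower, and members at least 90% unique gave 24 lower. In VAT at week 16 the offset gave 1 higher and no filter 2 lower, and over the mean of weeks the replicate block and only the groups compared gave 0 lower. For VAT NCD week 16 against week 0, no filter gave 2 higher, the offset 1, only the groups compared 3 and DESeq2 1, and the last 2 settings gave 1 lower each. Spleen week 4 gave 1 lower with no filter, the offset and DESeq2, and the spleen mean 1 lower among members at least 90% unique. The difference of HFD effects gave 2 higher with the offset and 0 with only the groups compared or members at least 90% unique. Without mt-Co1 the log2 ratio of nuclear to mt- sums was 1.37 in VAT and 0.99 in spleen. Leaving out 1 library at a time gave 0 to 1 lower for the VAT mean, 0 to 1 for spleen week 4, 1 to 3 for the spleen mean, 0 to 2 higher for the difference and 15 to 39 lower for IFNα. With the offset Sdha (-0.082) and mt-Nd3 (0.043) changed sign between tissues, as did mt-Cytb in VAT week 16 with no filter (-0.0035) and the replicate block (-0.0040). Leaving out 1 library also changed the sign of uncalled values: between tissues Cox6a1 (-0.061 to 0.062) and Ndufa10 (-0.047 to 0.037). In VAT week 16 these were mt-Co1 (-0.28 to 0.28), mt-Cytb (-0.19 to 0.13), mt-Nd4 (-0.25 to 0.075) and mt-Nd6 (-0.42 to 0.015), and in the VAT mean mt-Co1 (-0.023 to 0.11), mt-Nd3 (-0.10 to 0.16) and mt-Nd4 (-0.0066 to 0.079). Beyond fewer samples or genes, the cause was not tested. Same-numbered libraries deviated together, with every correlation over 0.1, in 1 of 20 pairs of groups, so the numbers were not taken as pairs. With the replicate block 37 members were lower and 17 higher in VAT than in spleen, and 31 were lower with IFNα.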
